A study of Mus musculus with 15 samples.

Results

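Cdkn1a, Ccng1, Mdm2, Phlda3, Bax, Trp53inp1, Gadd45a, Btg2, Zmat3 and Trp53 are the gene for the tumour suppressor p53 and 9 of the genes it activates in growth arrest and cell death. They were picked by gene symbol, with earlier results of these data known, and all 10 were found among the 18510 rows of a table of liver RNA sequencing. Messenger RNA was measured in the livers of 15 wild-type mice, with 5 mice on a control diet (Ctrl), 5 on an alcohol diet (Alc) and 5 on an alcohol diet together with UA (Alc UA), an abbreviation that is not expanded in the labels. The sources used here do not give strain, sex, age, dose, feeding time or the hour at which livers were collected. Levels are FPKM, fragments scaled for transcript length and for the fragments mapped in a library, so levels of different genes share a scale within a liver, while the scale between livers depends on how libraries are normalized.

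The p53 protein is held low by MDM2, a ubiquitin ligase whose own gene p53 activates. When DNA damage or another stress frees p53, it binds paired copies of a short DNA element and switches on genes that stop the cell cycle, such as Cdkn1a, or that open the mitochondrial route to cell death, such as Bax. In mouse liver, p21, the cyclin-dependent kinase inhibitor encoded by Cdkn1a, restrains hepatocyte division, and its transcript also answers to signals outside p53, among them the clock repressor REV-ERB alpha.

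The DNA element that p53 binds is a pair of decamers, and the promoter windows of these genes show where such letters lie. RefSeq windows (build GRCm38.p6) of 300 bases, from 250 before a gene's start to 50 after it, were found for 8 of the 10 genes, with 2 windows for Cdkn1a. A match to the p53 decamer consensus of 10 bases with 0 mismatches, read on both strands, was held by 6 of those 8 genes, and by 8.36% of all 32851 windows. Decamer pairs at most 13 bases apart, with at most 1 mismatch over both, were found in Cdkn1a, Ccng1 and Bax, and in 1.09% of all windows. These pairs overlap the single decamers just counted. The windows of those 3 genes follow, 5′ to 3′ along the gene, with the letters of the decamer pairs in capitals; Cdkn1a and Bax are shown because their transcripts changed, and Ccng1 because it carries a pair and did not pass the test.
Cdkn1a, chr17:29090729-29091028, plus strand: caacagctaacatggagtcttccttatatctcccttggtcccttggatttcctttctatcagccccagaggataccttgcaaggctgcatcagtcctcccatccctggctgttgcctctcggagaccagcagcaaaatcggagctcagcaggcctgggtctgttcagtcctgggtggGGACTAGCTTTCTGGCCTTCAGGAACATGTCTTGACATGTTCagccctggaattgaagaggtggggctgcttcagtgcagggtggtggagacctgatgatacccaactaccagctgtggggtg
Bax, chr7:45466849-45467148, minus strand: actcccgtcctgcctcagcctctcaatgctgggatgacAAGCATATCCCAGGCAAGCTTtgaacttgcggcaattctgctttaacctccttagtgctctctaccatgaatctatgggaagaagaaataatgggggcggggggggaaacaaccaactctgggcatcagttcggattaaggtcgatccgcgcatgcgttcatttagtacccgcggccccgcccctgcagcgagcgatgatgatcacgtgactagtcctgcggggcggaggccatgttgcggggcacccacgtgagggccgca
Ccng1, chr11:40755237-40755536, minus strand: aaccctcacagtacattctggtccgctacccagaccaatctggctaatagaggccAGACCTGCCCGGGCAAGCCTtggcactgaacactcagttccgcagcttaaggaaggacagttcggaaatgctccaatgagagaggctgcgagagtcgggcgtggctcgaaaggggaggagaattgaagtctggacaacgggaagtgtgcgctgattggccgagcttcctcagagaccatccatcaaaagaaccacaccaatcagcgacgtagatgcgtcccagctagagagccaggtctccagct
In Cdkn1a the capitals join 2 overlapping pairs, of which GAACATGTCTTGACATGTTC has 1 mismatch and begins 51 bases before the upstream start. The other Cdkn1a start lies 2790 bases downstream, and its window held none of the 5 motifs searched. Besides the 2 p53 motifs these were the E-box CACGTG, bound by CLOCK and BMAL1 among other factors, the octamer ATTTGCAT and the cyclic AMP element TGACGTCA, each on both strands. CACGTG stood in the windows of Bax, in 2 places, and of Trp53 (7.15% of all windows), ATTTGCAT in that of Gadd45a (1.74%) and TGACGTCA in that of Btg2 (1.79%). Matches describe letters only, and no binding was measured.

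Levels differed widely among the members. In the control livers Bax (27.7 FPKM), Cdkn1a (26.3) and Btg2 (19.6) had the highest means, followed by Trp53inp1 (13.6), Trp53 (12.5), Mdm2 (10.5), Ccng1 (9.47) and Gadd45a (4.17). In the Alc livers Btg2 (24.98), Trp53inp1 (19.1) and Bax (14.9) led, and Cdkn1a (3.97) stood below Ccng1 (11.8), Mdm2 (9.62), Trp53 (9.52) and Gadd45a (8.60). In the Alc UA livers the order was Btg2 (49.9), Trp53inp1 (32.6), Bax (13.6), Ccng1 (10.5), Mdm2 (10.3), Gadd45a (8.57), Trp53 (8.57) and Cdkn1a (3.48). The SDs given with each gene below are wide against most steps between neighbours. Over all livers Phlda3 (0.992 FPKM) and Zmat3 (0.859) were barely expressed. The spread over livers differed more still. The highest liver held 46.9 times the lowest for Cdkn1a, 14.6 times for Btg2 and 8.01 times for Gadd45a, against 1.79 times for Ccng1 and 1.96 times for Mdm2. A gene was tested where 5 or more of the 15 livers held 1 FPKM or more, which kept 10959 rows and 9 of the 10 members. Zmat3 reached 1 FPKM in 3 livers and was left out, and Phlda3 passed with exactly 5. The control libraries Ctrl 1 and Ctrl 5 had stood apart in earlier work on these data, so values without both are given for the members called.

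**Figure D1:**
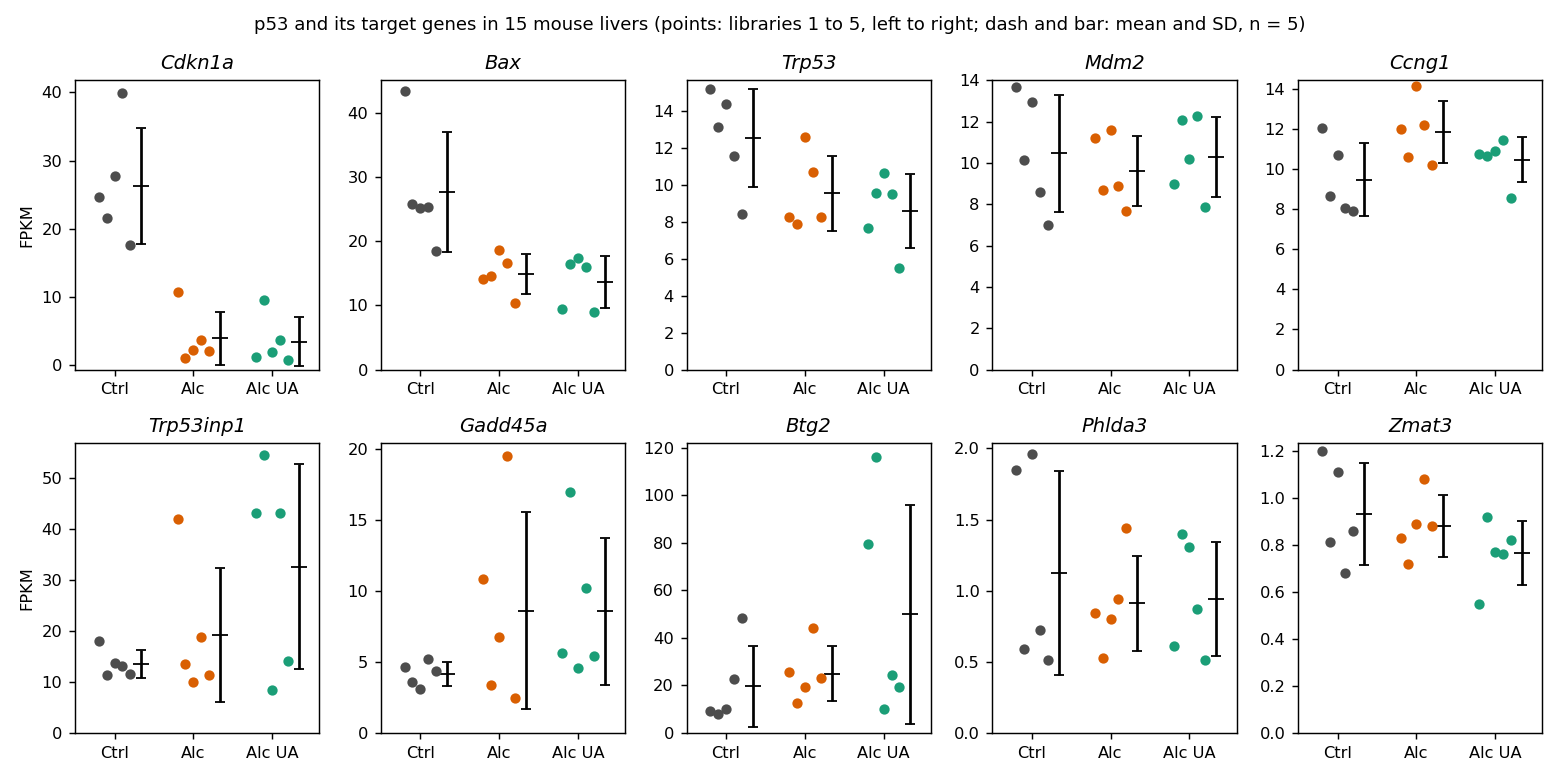
FPKM (vertical axes, a scale of its own for each gene) of the 10 genes in every liver, with points for livers 1 to 5 of Ctrl, Alc and Alc UA and the mean and SD (n = 5) beside them. Cdkn1a is at 17.6 or more in all 5 control livers and at 10.7 or less in all 10 alcohol-fed livers, while Mdm2 and Ccng1 overlap between the groups. Of all tested genes, 9.61% lie wholly below Ctrl in Alc and 14.7% in Alc UA.

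Cdkn1a was the member that differed most on the alcohol diet. Its level in the control livers was 24.6, 21.6, 27.7, 39.9 and 17.6 FPKM for Ctrl 1 to Ctrl 5. In the Alc livers it was 10.7, 1.08, 2.31, 3.69 and 2.05 FPKM for Alc 1 to Alc 5. In the Alc UA livers it was 1.25, 9.59, 1.96, 3.75 and 0.85 FPKM for Alc UA 1 to Alc UA 5. Every control liver lay above every alcohol-fed liver, and Alc 1 and Alc UA 2 stood above the other livers of their own groups. Among all 10959 tested genes, 9.61% lay wholly below Ctrl in Alc and 14.7% did so in Alc UA. The mean of 26.3 ± 8.47 in Ctrl (SD, n = 5) compared with 3.97 ± 3.88 in Alc and 3.48 ± 3.59 in Alc UA. The log2 fold change of FPKM + 1, a scale that understates changes of low genes, was -2.68 ± 0.46 in Alc against Ctrl (SE; limma adjusted p = 0.00083) and -2.86 ± 0.46 in Alc UA against Ctrl (limma adjusted p = 0.00036). The ratio of mean FPKM, Ctrl over Alc, was 6.62, and 11.5 without Alc 1; Ctrl over Alc UA it was 7.55, and 13.5 without Alc UA 2. Without Ctrl 1 and Ctrl 5 the log2 fold changes were -2.86 and -3.04 (limma adjusted p = 0.0020 and 0.00096). Antisense gene models overlap 273 of 3553 exon bases of Cdkn1a and 337 of 1764 of Gadd45a, and as the use of strand in counting is not given, reads in those stretches cannot be told apart. A same-strand model overlaps 192 of 1576 exon bases of Bax, where reads are shared whatever the strand.

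Bax encodes a pore-forming protein of the outer mitochondrial membrane that p53 activates in cell death. In the control livers it stood at 43.4, 25.9, 25.2, 25.3 and 18.5 FPKM for Ctrl 1 to Ctrl 5. The Alc livers held 14.1, 14.7, 18.6, 16.7 and 10.4 FPKM for Alc 1 to Alc 5. The Alc UA livers held 9.43, 16.4, 17.4, 16.0 and 8.94 FPKM for Alc UA 1 to Alc UA 5. Ctrl 1 was the highest liver, and Alc overlapped with Ctrl only through Ctrl 5 and Alc 3, which lay 18.5 against 18.6. Bax fell by 0.82 ± 0.22 on the log2 scale in Alc (27.7 ± 9.32 in Ctrl against 14.9 ± 3.06 in Alc; limma adjusted p = 0.012). It fell by 0.96 ± 0.22 in Alc UA against Ctrl (13.6 ± 4.11 in Alc UA; limma adjusted p = 0.0034). Without Ctrl 1 and Ctrl 5 these values were -0.76 and -0.90 (limma adjusted p = 0.016 and 0.0049).

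Trp53, the gene for p53 itself, showed smaller differences in the same direction. It was at 15.2, 13.1, 14.4, 11.52 and 8.43 FPKM in Ctrl 1 to Ctrl 5, at 8.26, 7.87, 12.6, 10.7 and 8.24 in Alc 1 to Alc 5, and at 7.64, 9.54, 10.7, 9.49 and 5.51 in Alc UA 1 to Alc UA 5. The groups overlapped, with Ctrl 5 among the alcohol-fed livers. Alc against Ctrl gave a log2 fold change of -0.36 ± 0.18 (limma adjusted p = 0.13), which did not pass, although it passed without Ctrl 5 (-0.48, limma adjusted p = 0.032). With all livers kept, this fall also passed with library weights and with the replicate block. Alc UA against Ctrl fell by 0.50 ± 0.18 (limma adjusted p = 0.032). Without both Ctrl 1 and Ctrl 5 it was -0.57 (limma adjusted p = 0.023). The call ended without Ctrl 1, Ctrl 2, Ctrl 3, Alc UA 1 or Alc UA 5 (limma adjusted p = 0.064 to 0.091). Median-of-ratios size factors, same-sum scaling and leaving off the filter each ended it too (limma adjusted p = 0.080, 0.074 and 0.052). The annotation also holds a pseudogene named Trp53-ps, and whether its reads were counted for Trp53 was not tested.

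Mdm2 and Ccng1, textbook targets of p53, did not follow Cdkn1a and Bax. Mdm2 was 13.7, 10.1, 12.95, 8.6 and 6.98 FPKM in Ctrl 1 to Ctrl 5, 11.2, 8.72, 11.6, 8.87 and 7.67 in Alc 1 to Alc 5, and 9, 12.1, 10.2, 12.3 and 7.87 in Alc UA 1 to Alc UA 5. The ranges of the 3 groups overlapped, and the log2 fold change was -0.09 ± 0.17 in Alc against Ctrl (95% interval -0.45 to 0.27; limma adjusted p = 0.71). Its sign turned with the scaling, as it was 0.07 with median-of-ratios size factors. Ccng1, which encodes cyclin G1, a partner of the phosphatase that acts on MDM2, was 12.03, 8.67, 10.7, 8.05 and 7.9 FPKM in Ctrl 1 to Ctrl 5. It was 12.02, 10.6, 14.1, 12.2 and 10.2 in Alc 1 to Alc 5, and 10.8, 10.7, 10.9, 11.45 and 8.54 in Alc UA 1 to Alc UA 5. The log2 fold change in Alc was 0.30 ± 0.12 (limma adjusted p = 0.063), above 0 and short of the threshold. Without Ctrl 1 it was 0.39 and passed (limma adjusted p = 0.022), and with median-of-ratios size factors it was 0.46 and passed (limma adjusted p = 0.0010). The rise also passed with quantile and same-sum scaling, library weights and the replicate block, and without both Ctrl 1 and Ctrl 5. In Alc UA against Ctrl the log2 fold change was 0.14 (limma adjusted p = 0.35), and it passed with quantile and median-of-ratios scaling.

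Trp53inp1, Gadd45a and Btg2 are stress-induced genes that p53 shares with other regulators, and their levels differed widely between livers of a group. The coefficient of variation of Trp53inp1 was 20.3% in Ctrl, 68.8% in Alc and 61.8% in Alc UA, that of Gadd45a was 20.4%, 80.8% and 60.5%, and that of Btg2 was 87.3%, 46.6% and 92.1%. Whether the spread differed between groups was not tested. Trp53inp1 encodes a nuclear protein of the p53 and autophagy response. It lay between 11.3 and 18.1 FPKM in the 5 control livers, at 41.9, 13.4, 10.04, 18.8 and 11.4 in Alc 1 to Alc 5, and at 43.1, 54.4, 8.42, 43.2 and 14.1 in Alc UA 1 to Alc UA 5. Alc 1, Alc UA 1, Alc UA 2 and Alc UA 4 were far above the controls, and the rest of the alcohol-fed livers stood in or near the control range. Gadd45a, whose product binds PCNA and p21 and acts in growth arrest, lay between 3.07 and 5.2 FPKM in controls. It was 10.8, 3.40, 6.78, 19.6 and 2.44 in Alc 1 to Alc 5, and 5.63, 17.0, 4.59, 10.3 and 5.43 in Alc UA 1 to Alc UA 5. Alc 4 and Alc UA 2 were the highest, and both alcohol groups overlapped with Ctrl. Btg2, an antiproliferative partner of mRNA deadenylation that is also an immediate-early gene, was at 9.02, 7.96, 10.02, 22.7 and 48.2 FPKM in Ctrl 1 to Ctrl 5. It was 25.7, 12.8, 19.5, 44.0 and 23.0 in Alc 1 to Alc 5, and 79.3, 116, 9.95, 24.5 and 19.4 in Alc UA 1 to Alc UA 5.

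Alc UA 1 and Alc UA 2 were the highest for Btg2, and Ctrl 5 stood above every Alc liver. None of these 3 genes passed in Alc against Ctrl. The log2 fold changes were 0.29 ± 0.45 for Trp53inp1, 0.61 ± 0.41 for Gadd45a and 0.56 ± 0.60 for Btg2 (limma adjusted p = 0.64, 0.27 and 0.49). In Alc UA against Ctrl they were 0.93 ± 0.45, 0.76 ± 0.41 and 1.11 ± 0.60 (limma adjusted p = 0.11, 0.15 and 0.15). Single livers and settings weighed on these values. Trp53inp1 passed without Alc UA 3 (1.31, limma adjusted p = 0.014), and Btg2 passed without Ctrl 5 (1.51, limma adjusted p = 0.041) and without Alc UA 3 (1.53, limma adjusted p = 0.040). With all livers kept, Trp53inp1 passed with median-of-ratios size factors, library weights and the replicate block, and Btg2 passed with library weights. Immediate-early transcripts beside Btg2, 14 genes in all, summed to 182 to 993 FPKM in Ctrl, 171 to 668 in Alc and 167 to 725 in Alc UA, and their part in these values was not tested.

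Phlda3 and Zmat3 were low throughout. Phlda3, which encodes an inhibitor of the kinase AKT, lay between 0.51 and 1.96 FPKM in every group, with a log2 fold change of -0.11 ± 0.21 in Alc against Ctrl (limma adjusted p = 0.71) whose sign turned after quantile normalization (0.07). Zmat3, an RNA-binding zinc finger gene, ranged from 0.55 to 1.2 FPKM and gave -0.03 ± 0.08 where no filter was applied (limma adjusted p = 0.81).

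Counted together, 0 members rose and 2 fell of the 9 tested in Alc against Ctrl, and 0 rose and 3 fell in Alc UA against Ctrl. The absence of rises depended on the settings, as Ccng1 passed as a rise in Alc against Ctrl under 7 of 28 alternatives. Among all 10959 genes 33.3% passed in Alc against Ctrl, 10.6% higher and 22.8% lower, so the members' share of falls was close to that of all genes. In Alc UA against Ctrl 42.6% passed, 10.5% higher and 32.1% lower, again close to the members' share. The split of all genes depended on the scale, with 1157 higher and 2497 lower as deposited and 2206 and 1672 with median-of-ratios size factors in Alc against Ctrl. On the deposited scale the tested genes had a median of -0.12 in Alc and -0.16 in Alc UA against Ctrl. Relative to these medians Cdkn1a was at -2.56 and -2.70, Bax at -0.70 and -0.80, and Trp53 at -0.24 and -0.34. The 2 comparisons share their control livers.

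**Figure D2:**
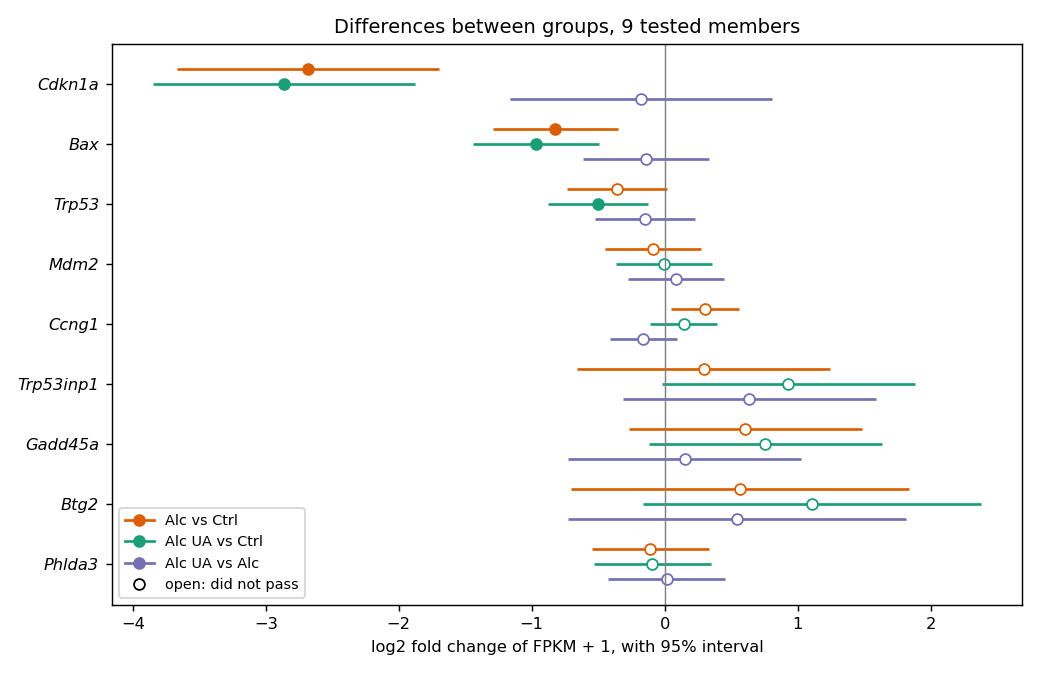
Log2 fold change of FPKM + 1 with its 95% interval for the 9 tested members in 3 comparisons; filled points passed limma with Benjamini-Hochberg adjusted p under 0.05. Cdkn1a lies at -2.68 and -2.86 against Ctrl, Bax at -0.82 and -0.96, and all intervals of Alc UA against Alc include 0.

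UA made no detectable difference to these genes on top of the alcohol diet. Of the 9 members tested in Alc UA against Alc, 0 passed in limma, and 0 had an unadjusted p under 0.05. Among all genes 0.00912% passed, which was 1 of 10959, and 664 had an unadjusted p under 0.05. For Cdkn1a the log2 difference was -0.18 (95% interval -1.16 to 0.80), for Bax it was -0.14 (-0.62 to 0.33), and for Trp53 it was -0.15 (-0.52 to 0.23). The intervals of Trp53inp1 (0.64, from -0.32 to 1.59) and Btg2 (0.54, from -0.73 to 1.82) were wide and leave room for a rise or a fall. Those of Ccng1 (-0.16, from -0.41 to 0.09) and Mdm2 (0.09, from -0.27 to 0.45) were narrower.

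Within the alcohol-fed livers, Cdkn1a was highest in Alc 1 and Alc UA 2, where Trp53inp1 was also high. Alc 1 held 10.7 FPKM of Cdkn1a with 41.9 of Trp53inp1, and Alc UA 2 held 9.59 with 54.4 of Trp53inp1, 17.0 of Gadd45a and 116 of Btg2. Other livers did not pair them: Alc UA 1 held 43.1 of Trp53inp1 and 79.3 of Btg2 with 1.25 of Cdkn1a, Alc UA 4 held 43.2 of Trp53inp1 with 3.75, and Alc 4 held the most Gadd45a, 19.6, with 3.69. Over the 10 alcohol-fed livers, the correlation of Cdkn1a with Gadd45a on the log2 scale was r = 0.72 (permutation p = 0.025, adjusted p = 0.15 over 9 relations) and rho = 0.73 (permutation p = 0.021, adjusted p = 0.16). Without Alc 1 and Alc UA 2, the livers farthest from the median of Cdkn1a, r was 0.68. It was 0.63 within Alc and 0.93 within Alc UA, with 5 livers each. For Trp53inp1 r was 0.62 (permutation p = 0.069, adjusted p = 0.21) with rho = 0.48 (permutation p = 0.17, adjusted p = 0.19), and r was 0.22 without those 2 livers, so that relation rests on them. Bax gave r = 0.46 (permutation p = 0.16, adjusted p = 0.26) and rho = 0.39 (permutation p = 0.27, adjusted p = 0.27). Mdm2 gave r = 0.67 (permutation p = 0.033, adjusted p = 0.15) and rho = 0.68 (permutation p = 0.035, adjusted p = 0.16), and Trp53 gave r = 0.35 (permutation p = 0.32, adjusted p = 0.32) and rho = 0.56 (permutation p = 0.097, adjusted p = 0.16), with r = 0.72 without the same livers. None of the 9 relations passed after adjustment.

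**Figure D3:**
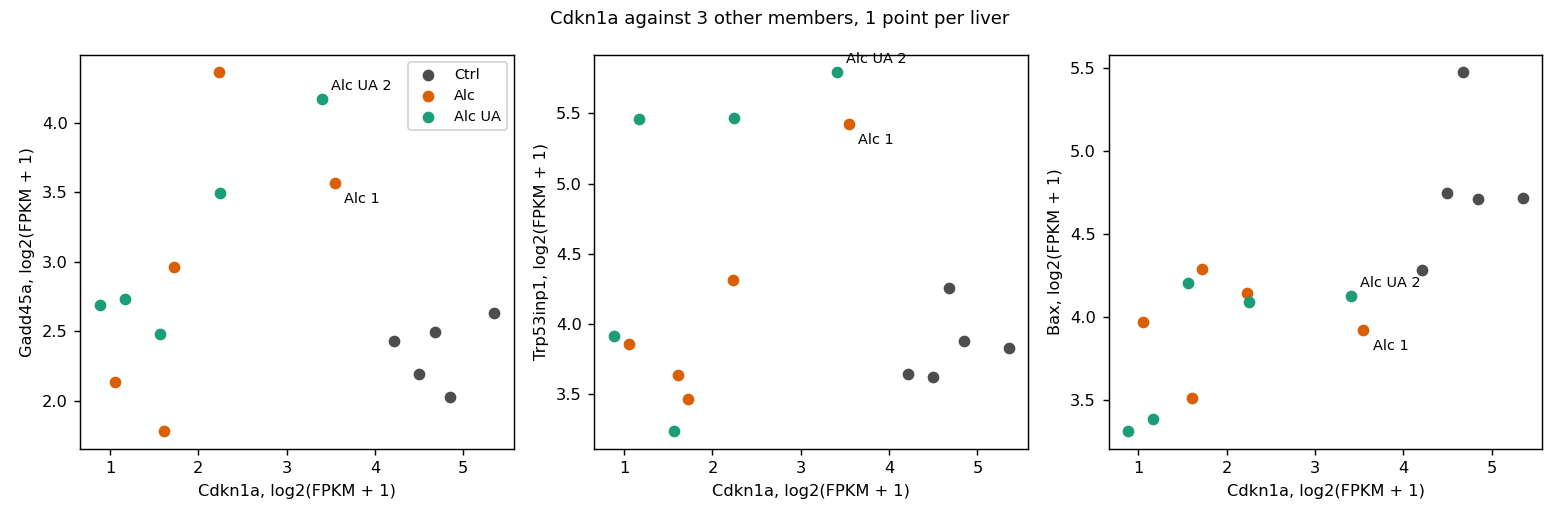
Cdkn1a (horizontal axes) against Gadd45a, Trp53inp1 and Bax (vertical axes), all as log2(FPKM + 1), with 1 point for each of 15 livers coloured by group. The 5 control livers form a cluster of high Cdkn1a apart from the 10 alcohol-fed livers, among which Alc 1 and Alc UA 2 have the most Cdkn1a, at 10.7 and 9.59 FPKM.

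Further genes of the p53 network were counted from lists that were written with earlier results of these data known. Of 31 further p53 targets tested, 1 rose and 11 fell in Alc against Ctrl, with a median log2 fold change of -0.21 against -0.12 for all genes. Beside this and the counts that follow stand the 10.6% of all tested genes that rose and the 22.8% that fell in that comparison, and nothing is called particular to a list. The falls were Sco2, Plk2, Fas, Rps27l, Ercc5, Bbc3, Trp53i11, Tigar, Tnfrsf10b, Sertad1 and Pidd1, and the rise was Dcxr, whose call ended without Alc 3 (limma adjusted p = 0.050). Sco2, an assembly factor of cytochrome oxidase, was at 33.9 ± 21.6 FPKM in Ctrl and 3.33 ± 1.47 in Alc (SD, n = 5; log2 fold change -2.84 ± 0.33, limma adjusted p = 5.2e-05). Plk2, a polo-like kinase gene, fell by 0.95 ± 0.19, the death receptor gene Fas fell by 0.54 ± 0.12, and Rps27l, a ribosomal protein gene, fell by 0.70 ± 0.17 (limma adjusted p = 0.0021, 0.0042 and 0.0072). The number of falls was 6 without Ctrl 1, without Ctrl 3 or without Alc 1, 7 without Alc 5, and 5 after same-sum scaling. It also dropped with quantile normalization and with the 2 groups fitted alone, and it ran from 5 to 14 over all alternatives. The rises numbered up to 3 with quantile or median-of-ratios scaling or library weights.

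Of 14 paralogs of the members tested, 0 rose and 6 fell in Alc against Ctrl (median -0.51; 10.6% of all genes rose and 22.8% fell). The rises numbered 1 with quantile, median-of-ratios or same-sum scaling, without Ctrl 1 and without both Ctrl 1 and Ctrl 5, and 3 with library weights. Bok, a relative of Bax, fell from 13.5 ± 1.96 to 5.39 ± 0.35 FPKM (log2 fold change -1.17 ± 0.09, limma adjusted p = 1.7e-06). Ccng2, the paralog of Ccng1 that is a target of FOXO factors, fell by 0.79 ± 0.13, Btg1 fell by 0.95 ± 0.17 and Trp53inp2 fell by 0.73 ± 0.13 (limma adjusted p = 0.00077, 0.0011 and 0.00083). Ccng1, Btg2 and Trp53inp1 did not pass in the same comparison, and the difference between paralogs was not tested. Gadd45g was at 124 ± 45.1 FPKM in Ctrl against 58.4 ± 28.2 in Alc (-1.13 ± 0.38, limma adjusted p = 0.031). That call ended without Ctrl 2, Ctrl 4, Ctrl 5, Alc 1 or Alc 2, without both Ctrl 1 and Ctrl 5, with no filter, and with median-of-ratios or same-sum scaling (limma adjusted p = 0.051 to 0.088). The other genes given here with a fold change and a call in Alc against Ctrl kept it without both of those controls. Gadd45b gave -1.14 ± 0.53 (limma adjusted p = 0.10) and passed without Alc 1 and, with all livers kept, with library weights. Cdkn1b, which encodes the inhibitor p27, gave -0.28 ± 0.12 (limma adjusted p = 0.083) and passed without Ctrl 5 and without both Ctrl 1 and Ctrl 5. Mdm4, the partner of Mdm2, gave -0.10 ± 0.12 (limma adjusted p = 0.52), with a sign that turned with the scaling.

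Of 18 regulators of the p53 protein, 0 rose and 5 fell in Alc against Ctrl (median -0.09), close to the 22.8% of all genes that fell, with 2 or 3 falls left without Ctrl 1, Ctrl 3, Alc 1 or Alc 5, 2 with median-of-ratios scaling and 1 after same-sum scaling. Ppm1d, a phosphatase gene that p53 activates and that dampens p53, fell by 0.56 ± 0.11 (limma adjusted p = 0.0016), and the ubiquitin ligase gene Rchy1 fell by 0.34 ± 0.09 (limma adjusted p = 0.011). The call of Rchy1 ended with median-of-ratios and same-sum scaling (-0.18 and -0.21, limma adjusted p = 0.088 and 0.10). Among 16 genes of the G1 cyclins, their kinases and inhibitors, 2 rose and 6 fell, with 1 rise without both Ctrl 1 and Ctrl 5. Ccnd3 fell by 0.72 ± 0.16, Cdk4 fell by 0.53 ± 0.13 and E2f5 fell by 0.58 ± 0.08, while Cdk6 rose by 0.51 ± 0.12 (limma adjusted p = 0.0042, 0.0059, 0.00018 and 0.0050). Ccnd1, the cyclin gene of liver regeneration, gave 0.27 ± 0.30 (limma adjusted p = 0.51).

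Of 25 genes of S phase and mitosis, 11 were tested, and 0 rose and 1 fell, which was Mcm7 (-0.52 ± 0.10, limma adjusted p = 0.0016). Without Ctrl 5 the falls numbered 3, and up to 4 under other settings. Of 21 genes of the BCL2 family and the caspases, 4 rose and 8 fell (median -0.03). Beside Bok, the antiapoptotic gene Bcl2l2 fell by 0.60 ± 0.11 and the BH3-only gene Bik fell by 0.95 ± 0.20 (limma adjusted p = 0.0012 and 0.0031). The rises numbered 2 without Ctrl 2, Ctrl 4 or Alc 3, and 7 with quantile, median-of-ratios or same-sum scaling or library weights. The falls numbered 5 without Ctrl 1 or Alc 1 and 4 with same-sum scaling, so the balance depends on the scale. In Alc UA against Alc 0 genes passed in limma in any of these lists.

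**Figure D4:**
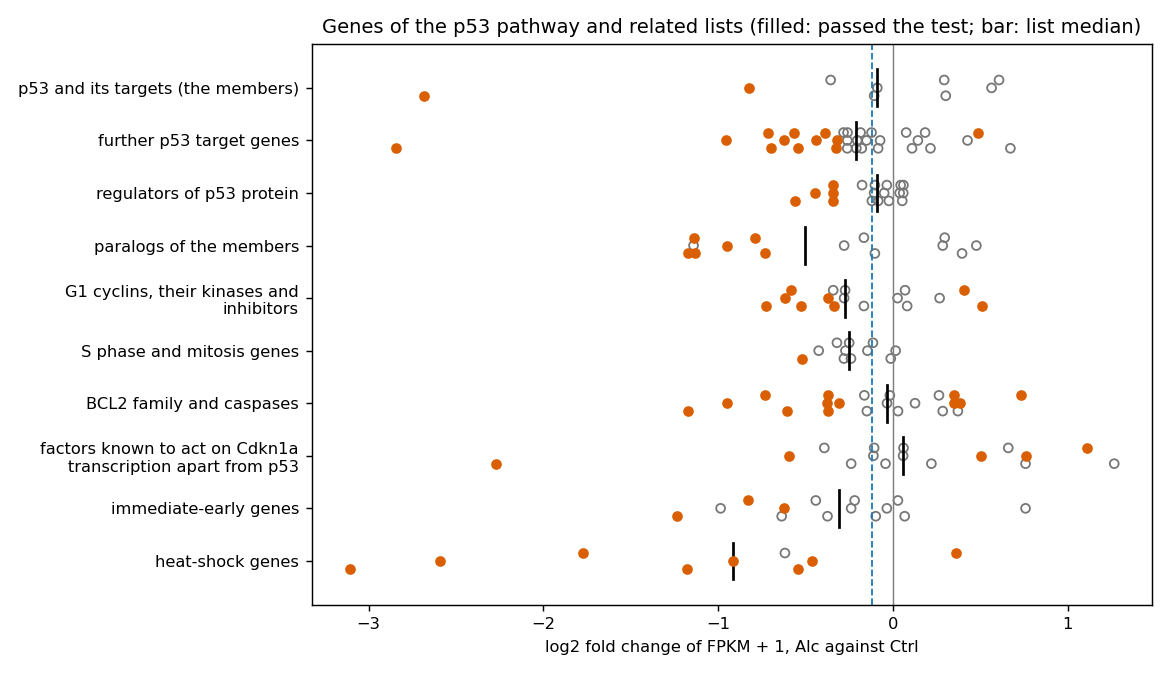
Log2 fold change of FPKM + 1 in Alc against Ctrl for each tested gene of 10 lists, filled where limma passed; black bars are list medians and the blue dashed line is the median of all tested genes, -0.12. Cdkn1a and Sco2 lie at -2.68 and -2.84, far to the left of their lists.

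Cdkn1a is also under factors other than p53, and 16 of these were tested. In Alc against Ctrl 3 rose and 2 fell. Arntl, which encodes the clock activator BMAL1, was at 9.74 ± 1.79 FPKM in Ctrl and 1.21 ± 0.19 in Alc (log2 fold change -2.27 ± 0.12, limma adjusted p = 2.8e-08), and Clock fell by 0.60 ± 0.09 (limma adjusted p = 0.00031). Foxo3, a forkhead factor gene, rose by 0.76 ± 0.13 (limma adjusted p = 0.00072). Nr1d1, which encodes REV-ERB alpha, was at 31.1 ± 17.0 in Alc against 16.5 ± 19.5 in Ctrl (1.27 ± 0.50, limma adjusted p = 0.064) and passed without Ctrl 5, without both Ctrl 1 and Ctrl 5, with quantile or same-sum scaling and with library weights. The hour of collection moves such genes, and its part in the level of Cdkn1a was not tested.

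Likeness to Cdkn1a was measured as Pearson's r over all 15 livers among 9590 genes. Since Ctrl and the alcohol-fed livers form separate clusters, r holds that split together with likeness within groups, and it is given as a description. The highest were Chka (0.951), which encodes choline kinase, Clpx (0.947), a mitochondrial protease subunit gene, Pura (0.944), Fam20a (0.939) and Plin5 (0.939), a lipid droplet coat gene. The lowest were Aqp11 (-0.905), Per3 (-0.904), a clock gene, Fdft1 (-0.903), Sec22c (-0.903) and Narf (-0.888). With the group means removed, r was 0.81 for Chka, 0.84 for Clpx and 0.75 for each of Pura, Fam20a and Plin5. For the lowest genes it then ran from -0.68 (Fdft1) to -0.46 (Narf). All of these genes were picked by the r over 15 livers, which holds this part, so the values within groups are not free of that choice. Clpx was at 141 ± 11.53 FPKM in Ctrl, 32.5 ± 6.28 in Alc and 34.98 ± 12.9 in Alc UA (SD, n = 5). Chka was at 43.1 ± 10.4, 8.68 ± 2.19 and 9.63 ± 4.11 in the same order. Of the members, Bax came closest over 15 livers, at 0.79. After the group means were removed Bax was at 0.38, below Gadd45a (0.71), Trp53inp1 (0.68) and Mdm2 (0.51).

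Marker genes of other cell types and stress transcripts were counted in the same contrast, in which 10.6% of all tested genes rose and 22.8% fell. Bulk liver cannot tell fewer cells of a type from less RNA per cell. Of 13 sinusoidal endothelial markers, 0 rose and 12 fell in Alc against Ctrl, and their summed level was 174 to 504 FPKM in Ctrl, 75.2 to 173 in Alc and 81.2 to 104 in Alc UA. Erythroid markers gave 5 falls of 5, with sums of 1432 to 8801 in Ctrl, 576 to 988 in Alc and 346 to 1033 in Alc UA, and the gene Slc4a1 was at 0 FPKM in 1 liver. T and NK cell markers gave 3 falls of 3 tested, with sums of 5.32 to 45.0, 3.41 to 11.1 and 3.81 to 11.3 in the same order. B and plasma cell markers gave 4 falls of 4, with sums of 7.49 to 22.7, 2.15 to 7.08 and 3.02 to 14.5. Kupffer cell markers gave 0 of 11 in limma, with 62.8 to 422, 175 to 291 and 198 to 657. Neutrophil, stellate and cholangiocyte markers gave 1 fall each, of 3, 8 and 4 tested, and the neutrophil genes Mpo, Camp and Ly6g were at 0 FPKM in 7, 4 and 1 livers. The counts of these small lists are not set apart from the share of all genes that fell, nor is that of the hepatocyte markers, which gave 0 rises and 3 falls of 9, with sums of 61573 to 75133 in Ctrl and 57252 to 69241 in Alc and 38423 to 59341 in Alc UA, so the labelled tissue expressed its defining genes in every library. Of 9 heat-shock genes 7 fell and 1 rose, a rise that ended without any of Ctrl 1 to Ctrl 4, Alc 1, Alc 2, Alc 4 or Alc 5, and Hspa1a, which encodes HSP70, was at 41.5 ± 45.3 FPKM in Ctrl against 3.42 ± 4.26 in Alc (limma adjusted p = 0.0011). The part of these shifts in the levels of Cdkn1a and Bax was not tested. Libraries held FPKM sums from 551153 to 668832 and 10119 to 11471 genes at 1 FPKM or more.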

How the data were processed

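Liver RNA of 15 wild-type mice was sequenced from MGISEQ libraries after phenol and chloroform extraction, per the labels' protocols. A single table of FPKM values, rounded to 2 decimals, was deposited by the authors. The submitters' processing notes name RSEM 1.2.8, HISAT2 2.1.0 and Bowtie2 2.2.5, with DESeq and StringTie, and give them no order. Neither the genome build nor the use of strand is given in the sources used here. Depth is unknown and no count test was used, because FPKM is a normalized unit.

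The scale was log2(FPKM + 1). Rows reaching 1 FPKM in 5 or more of the 15 libraries entered a linear model over the 3 groups (limma 3.58.1 in R 4.3.3, mean trend, 12 residual degrees of freedom, Benjamini-Hochberg adjustment over all tested genes within a comparison, threshold 0.05). The fit was tested on simulated data. Column names were matched to the sample titles. The limma p-values set a group difference against the spread between livers within groups, estimated over the 3 groups together. Alternatives changed the pseudocount, filter, scaling, variance prior, library weights, libraries in the fit and replicate block, and left out each library in turn.

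The members, the lists and the rule for named genes were chosen with earlier results of these data known. All members are named, with up to 4 called genes of smallest p per list, 10 further genes whatever their p, and the 5 genes most and least like Cdkn1a. Some genes that this rule covers are not reported here. Correlations used 100000 permutations (scipy 1.17.1 in Python 3.11.15). Promoter sequences are from RefSeq, build GRCm38.p6, and overlaps between genes from GENCODE. Trp53inp1 and Zmat3 had no promoter entry.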

Additional observations from a re-analysis of the deposited data

Results flagged for a closer look

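Ccng1 in Alc UA 5 stood apart from the other livers of its group. It was at 8.54 FPKM, while the other livers of Alc UA held 10.65 to 11.45. On the log2(FPKM + 1) scale its gap to the nearest of them was 0.751 of the group's whole range, above Dixon's critical value of 0.71 for 5 samples. This was 1 of 30 combinations of member and group examined, and chance flags about 1 in 20.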

How the results depend on the processing

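Of 251 alternative values of the members in each comparison, 232 kept direction and side of the threshold in Alc against Ctrl, 221 in Alc UA against Ctrl and 240 in Alc UA against Alc. Direction could not turn in some of these runs, such as those that changed only the variance prior or left out a library of the group not compared. The calls of Cdkn1a and Bax against Ctrl held under every alternative run. Members passing numbered 2 in Alc against Ctrl, 4 with library weights and 4 with the replicate block, and 2 to 3 when 1 library was left out. With quantile, median-of-ratios or same-sum scaling Ccng1 passed there too, as a rise. In Alc UA against Ctrl the members passing numbered 3, 5 with library weights and 4 with the replicate block, and 2 to 5 when 1 library was left out, with 5 without Alc UA 3. Ccng1 passed there as a rise with quantile and median-of-ratios scaling, and Trp53inp1 did so with median-of-ratios scaling. In Alc UA against Alc the members passing numbered 0 in all of these. Same-numbered livers deviated from their group means with correlations of -0.302 to 0.287. Livers of different numbers were not compared, so whether the replicate numbers pair the livers was not tested.

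Signs that turned were of differences that did not pass. Mdm2 was at 0.0088, 0.068 and 0.036 in Alc against Ctrl with quantile, median-of-ratios and same-sum scaling, and at 0.14, 0.22 and 0.075 in Alc UA against Ctrl, with 0.017 with library weights. Mdm4 was at 0.0021, 0.050 and 0.021 in Alc against Ctrl. Phlda3 was at 0.074 and 0.081 in Alc against Ctrl with quantile scaling and library weights, at 0.13, 0.033 and 0.11 in Alc UA against Ctrl with quantile scaling, median-of-ratios and weights, and at -0.012 in Alc UA against Alc with same-sum scaling. Cdkn1a was at 0.14 in Alc UA against Alc with weights. Leaving out 1 library gave -0.57 to 0.20 for Cdkn1a, -0.14 to 0.50 for Gadd45a and -0.069 to 0.11 for Phlda3 in Alc UA against Alc. It gave -0.13 to 0.095 for Mdm2 and -0.20 to 0.042 for Phlda3 in Alc UA against Ctrl. In Alc against Ctrl it gave -0.21 to 0.0087 for Mdm2, -0.22 to 0.028 for Phlda3 and -0.028 to 0.46 for Trp53inp1. The cause was not tested. Depth is unknown, and levels near 1 FPKM, as for Phlda3 and Zmat3, limit what can be seen.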
